A study of Caenorhabditis elegans with 9 samples.

Results

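The 214 genes described here are those that the authors listed as higher in VA motor neurons of unc-4 mutants than in wild type VA motor neurons of Caenorhabditis elegans. They were taken as all rows with a gene identifier in the authors' table of this comparison, and 2 further rows that hold sums were left out. They make up 214 of the 2550 genes listed in either of the authors' 2 tables. The mutant neurons came from animals labelled unc-4, with no allele given in the labels, and the others from animals labelled wild type. The genotype rests on the sample titles and source names, since the strain label is the same for both groups. Both groups had 3 libraries, came from L2 larvae synchronized by hypochlorite treatment, and are labelled with the same pair of reporters, pUnc-4::mCherry and pUnc-4C::GFP. Larvae were dissociated and cells with red but no green fluorescence were sorted, a gate that per the labels also takes AVF interneurons. Whole L2 worms of the N2 strain, 3 libraries that were frozen and not sorted, serve only as a further level for genes found in both tables. Nothing in the labels says that the 3 libraries of a group came from separate cultures, so the spread between them may be technical. The deposited library numbers are 64, 65 and 66 for unc-4 replicates 1, 2 and 3, and 33, 34 and 67 for wild type. Wild type replicates 1 and 2 are thus numbered apart from all unc-4 libraries. What the numbers stand for is not said, and their part in the differences was not tested.

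VA neurons are excitatory motor neurons that lie in the ventral nerve cord, release acetylcholine and drive backward locomotion, and VB neurons, their sisters, drive forward locomotion. UNC-4 is a homeodomain protein that works with the Groucho-type corepressor UNC-37 to hold VB genes off in VA neurons. In its absence VA neurons receive inputs that normally belong to VB neurons, and the homeobox gene ceh-12, the worm relative of HB9, is a known target of this repression. The comparison asks which transcripts are higher in VA neurons in unc-4 mutants.

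Values are TPM, transcript abundances scaled by transcript length and to a fixed library total. Sequencing depth cannot be read from them. All 214 genes (100%) passed the authors' own threshold, a false discovery rate (FDR) under 0.05 with a fold above 1, because the table holds only such genes. For that reason no test of the difference was run again here. A gene is called separated below where all 3 unc-4 libraries exceeded all 3 wild type libraries, which was so for 150 genes (70.1%), and this share is a result of the choice of genes and is given as background for the counts that follow. Genes lower in unc-4, and those short of the threshold, are not analysed here.

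The unc-4 libraries were unequal, and this bears on most of the results. The listed genes held 6.37%, 1.77% and 6.28% of all TPM in unc-4 replicates 1, 2 and 3, against 0.430%, 0.270% and 0.466% in wild type replicates 1, 2 and 3. Of the unc-4 libraries, replicate 2 had the lowest value in 178 of 214 genes and the highest in 13. Of the 64 genes that were not separated, 59 had unc-4 replicate 2 alone at or below the highest wild type library, 4 had replicate 1 there and 1 had replicate 3. Among wild type libraries replicate 2 was the lowest in 109 genes. In that library 12 stress genes of the authors' whole-worm table held 32.6% of TPM, against 5.23% and 1.91% in wild type replicates 1 and 3. As TPM has a fixed total, this lowers the other genes of wild type replicate 2. The levels of those stress genes in unc-4 are not in the table used here, and their part in the results was not tested.

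The median ratio of mean TPM, unc-4 over wild type, was 14.9 over the 214 genes, with quartiles of 9.37 and 29.5 and a range of 4.28 to 365. Taken 1 unc-4 library at a time against the wild type mean, the median ratio was 18.4 in replicate 1, 2.84 in replicate 2 and 15.6 in replicate 3. Without unc-4 replicate 2 there were 209 separated genes and a median ratio of 20.4, and without wild type replicate 2 there were 152 and 12.98. The ratio stayed above 3 with any library left out in 207 genes. In the authors' deposited table the fold ran from 3.69 to 311, with a median of 13.3. Mean levels in unc-4 reached 1000 TPM in 9 genes and 100 TPM in 74, and 45 genes had a wild type mean under 1 TPM. The 12 genes with the highest unc-4 means held 52.9% of the listed TPM of that group. In sorted bulk samples, more cells that express a gene and more RNA per cell cannot be told apart.

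**Figure D1:**
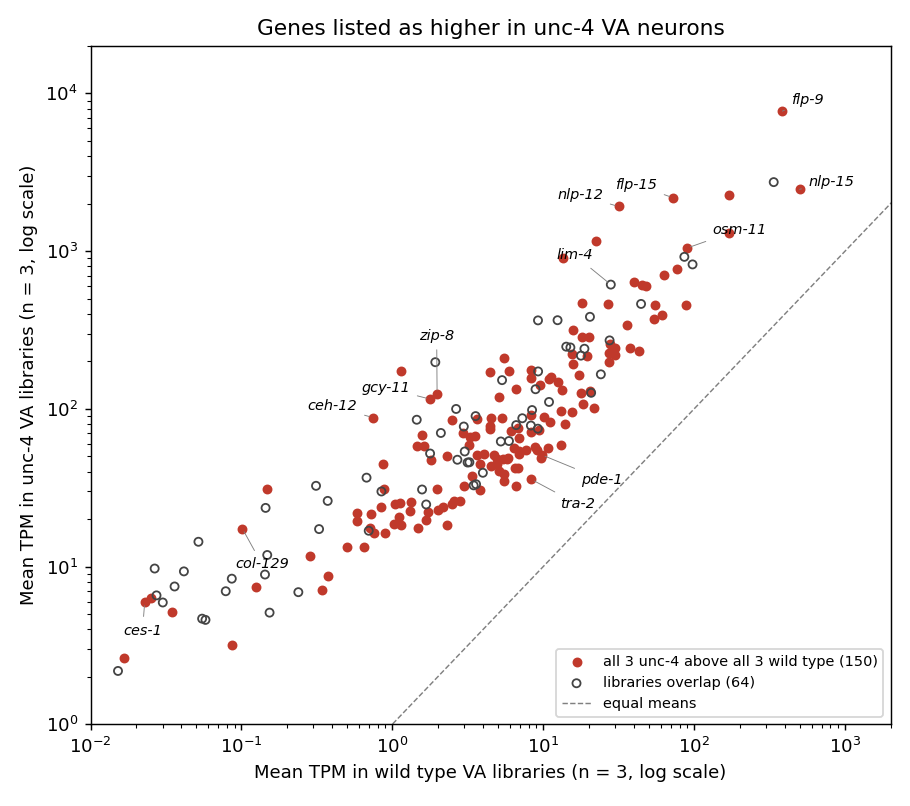
Mean TPM in the 3 unc-4 VA libraries (vertical, log scale) against mean TPM in the 3 wild type VA libraries (horizontal, log scale) for the 214 listed genes; filled points are the 150 separated genes, open points the 64 others, and the dashed line marks equal means. All points lie above the line because of how the genes were chosen, with ceh-12 far above it at 88.1 against 0.741 TPM and flp-9 the highest at 7719 against 384 TPM.

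The HB9-type gene ceh-12 (WBGene00000436, chromosome I, 5840282 to 5841940 in WBcel235) showed the widest gap between the groups of all 214 genes. It had 40.2, 139 and 85.5 TPM in unc-4 replicates 1, 2 and 3, against 0.620, 0.498 and 1.11 TPM in wild type replicates 1, 2 and 3. Its lowest unc-4 library was 36.4 times its highest wild type library, and unlike most listed genes it was highest in unc-4 replicate 2. Its mean was 88.1 ± 49.3 TPM in unc-4 and 0.741 ± 0.321 TPM in wild type (SD, n = 3 each), a ratio of 119 that ran from 84.8 to 158 with 1 library left out. With a pseudocount of 1 TPM, which exceeds the wild type mean, the ratio was 51.2. The authors' deposited table gave a fold of 97 and an FDR p-value printed as 0 for it. Among 7 genes reported in the UNC-4 pathway, ceh-12 was the only one listed. Those not listed were unc-4 itself, the corepressor gene unc-37, the T-box gene mab-9, the nicotinic receptor gene acr-5, the glutamate receptor gene glr-4 and the sodium channel gene del-1. Of these, unc-4, unc-37, glr-4 and del-1 were in the authors' table of wild type VA neurons against whole worms. The genes acr-5 and mab-9 were in neither table. Absence from the unc-4 comparison does not give a gene's level in the mutant. For unc-4 itself, the genotype could thus not be checked on its own transcript.

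Of 7 genes that mark VB and DB motor neurons, ceh-12 and unc-129 were listed (28.6%, against 1.07% of all coding genes). The gene unc-129 encodes a TGF-beta-like guidance ligand made by dorsal muscle and DB neurons. It had 25.8, 129.5 and 224 TPM in unc-4, against 14.3, 32.01 and 15.9 TPM in wild type. Replicates 2 and 3 of unc-4 lay above all wild type libraries, and unc-4 replicate 1 fell below wild type replicate 2. Of 11 genes of the cholinergic ventral cord list, only the acetylcholinesterase gene ace-1 was listed. It read 3.15, 2.88 and 15.2 TPM in unc-4, against 0.602, 0.358 and 0.0682 TPM in wild type, a low level in both groups with no overlap between them. The lists of 101 synaptic and dense core vesicle genes and of 25 innexin genes, which form gap junctions, had 0 members in the table. With 1.07% of all coding genes listed, counts of 0 in lists of such size are near the background.

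Neuropeptide precursors had the highest summed level of the 25 lists. These genes encode proteins that are cut into short signalling peptides and released from dense core vesicles. Listed were 14 of 149 annotated members (9.40%, against 1.07% of all 19985 coding genes), of which 12 were separated, with a median ratio of 14.7 against 14.9 for all listed genes. Together they held 2.03%, 0.896% and 2.69% of TPM in unc-4 replicates 1, 2 and 3, against 0.141%, 0.0988% and 0.150% in the wild type replicates. In 12 of the 14 the lowest unc-4 value was that of replicate 2. The list was built from current symbols, so nlp-38, a neuropeptide-like precursor gene now named mihp-1, is not counted among the 14. It was also separated, with unc-4 replicate 2 highest, and its values are given further on.

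The most abundant listed gene was flp-9 (WBGene00001452, chromosome IV, 12754558 to 12757570), an FMRFamide-like precursor. It had 8183, 5269.8 and 9705 TPM in unc-4 replicates 1, 2 and 3, against 489, 204 and 460.2 TPM in wild type replicates 1, 2 and 3. No unc-4 library came near the wild type range, and unc-4 replicate 2 was the lowest by less than in most genes. Its mean was 7719 ± 2254 TPM in unc-4 and 384 ± 157 TPM in wild type (SD, n = 3 each), a ratio of 20.1, or 16.3 to 23.3 with 1 library left out. The authors' deposited table gave it a fold of 17.3 and an FDR p-value of 4.8e-10. Next came nlp-15 (chromosome I, 12988231 to 12995475), with 1842, 1859.9 and 3695 TPM in unc-4, against 388, 546 and 564 TPM in wild type. It was already abundant in wild type, and its ratio of 4.94 was near the low end of the listed genes.

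In several other precursors unc-4 replicates 1 and 3 were far above wild type and replicate 2 was close to it. The FMRFamide-like gene flp-15 (chromosome III, 13663400 to 13667839) had 2318, 174 and 4048 TPM in unc-4, against 76.3, 62.4 and 78.4 TPM in wild type. The gene nlp-12 (chromosome I, 1843384 to 1843959), which encodes a cholecystokinin-like peptide, had 2017, 118 and 3621 TPM in unc-4, against 33.1, 26.2 and 35.4 TPM in wild type. For both, replicate 2 was still above all wild type libraries. Ratios of means were 30.1 (17.2 without unc-4 replicate 3) for flp-15 and 60.8 (33.8 without unc-4 replicate 3) for nlp-12. The gene Y23B4A.2, now capa-1, encodes a neuromedin U-like precursor and had 1895, 44.1 and 783 TPM in unc-4, against 16.4, 6.72 and 17.4 TPM in wild type. The gene nlp-40, known for a peptide released by the intestine in the defecation rhythm, had 1104, 134 and 1077 TPM in unc-4, against 101, 36.02 and 93.4 TPM in wild type. Both were separated with unc-4 replicate 2 lowest. In C45G9.13, now nlp-43, values were 428, 102.6 and 1382 TPM in unc-4, against 59.6, 4.20 and 56.8 TPM in wild type. Here wild type was uneven too, with replicate 2 more than 10 times below the others.

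In other precursors unc-4 replicate 2 stood closer to replicates 1 and 3. The gene Y73B6BL.35, now nlp-71, had 418, 505 and 450.1 TPM in unc-4, against 89.4, 27.2 and 47.5 TPM in wild type, and its unc-4 libraries spread least of all listed genes relative to their mean. The FMRFamide-like genes flp-11 and flp-18 were also well separated. The gene flp-18 had 781, 348 and 686 TPM in unc-4, against 53.7, 30.6 and 60.1 TPM in wild type. The gene flp-11 had 659, 362 and 811 TPM in unc-4, against 51.5, 27.04 and 56.7 TPM in wild type. The exons of flp-11 overlap those of tmem-135 on the opposite strand, and since the sources used here do not say whether counting used strand, its value is uncertain. The same holds for the other genes noted below as overlapping a neighbour. In T05A8.3 and unc-71 the neighbour is on the same strand, so their values are uncertain even if counting used strand. Ratios were 12.6 for flp-18 and 13.5 for flp-11.

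At lower levels, F14F11.2, now nlp-55, had 239, 25.2 and 389 TPM in unc-4, against 31.03, 6.06 and 16.2 TPM in wild type. The gene nlp-6 had 230.1, 5.04 and 26.3 TPM in unc-4, against 12.1, 7.22 and 2.51 TPM in wild type. These were the 2 precursors in which the groups overlapped, each through unc-4 replicate 2. The gene Y67D8B.4, now nlp-81, had 115.3, 8.74 and 234.6 TPM in unc-4, against 4.72, 3.55 and 7.10 TPM in wild type. The FMRFamide-like gene flp-10 had 41.7, 1.60 and 34.2 TPM in unc-4, against 1.501, 1.005 and 1.49 TPM in wild type. In flp-10 replicate 2 exceeded the highest wild type library by a small margin.

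**Figure D2:**
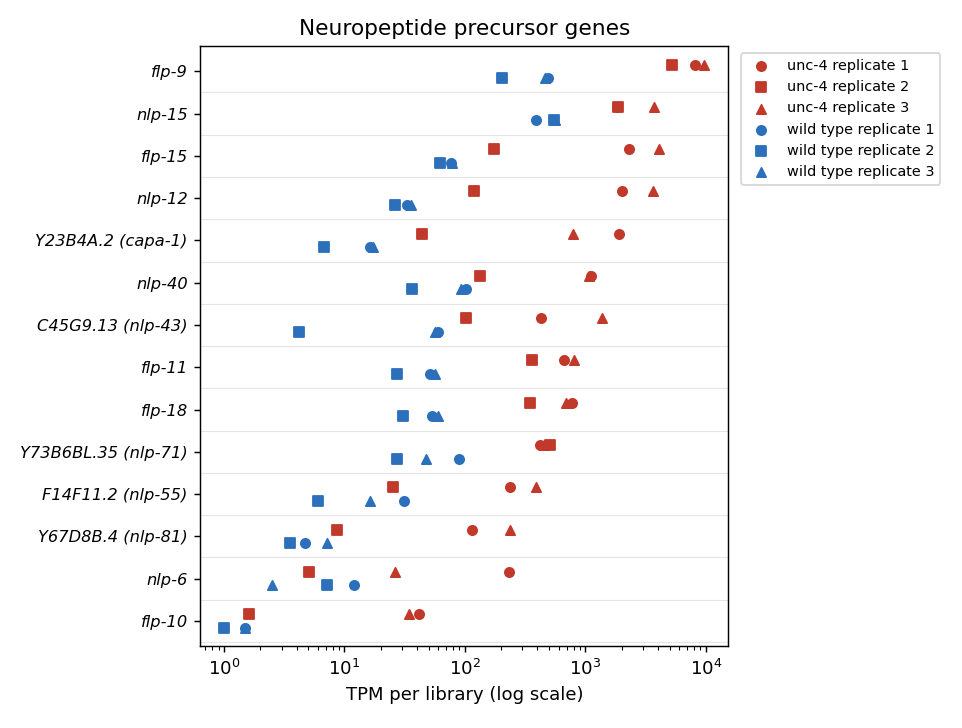
TPM per library on a log scale for the 14 listed neuropeptide precursor genes, ordered by mean unc-4 level, without nlp-38 (mihp-1). The unc-4 libraries are in red above wild type libraries in blue, with a symbol for each replicate. The red squares of unc-4 replicate 2 lie far left of the other red symbols in flp-15, nlp-12 and Y23B4A.2 (capa-1) and among them in Y73B6BL.35 (nlp-71).

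Peptide receptor genes had unc-4 means below 100 TPM. Listed were 6 of 114 (5.26%), and all 6 were separated, with a median ratio of 9.02. The gene ckr-1 (chromosome I, 6687349 to 6691671) encodes a receptor for NLP-12 peptides and had 34.4, 73.4 and 36.7 TPM in unc-4, against 9.34, 2.47 and 4.37 TPM in wild type. It was highest in unc-4 replicate 2, the library in which its ligand gene nlp-12 was lowest, as were 178 of the 214 listed genes. The gene npr-4 (chromosome X, 12536978 to 12551684) encodes a receptor for FLP-18 peptides and had 54.01, 8.96 and 57.5 TPM in unc-4, against 6.70, 2.11 and 6.46 TPM in wild type. Ratios were 8.93 (14.1 without wild type replicate 1) for ckr-1 and 7.89 for npr-4. Both were separated, with unc-4 replicate 2 lowest for npr-4. The receptor gene npr-12 had 51.4, 42.9 and 76.2 TPM in unc-4, against 13.7, 7.31 and 11.1 TPM in wild type. The gene npr-28 had 34.3, 16.8 and 27.2 TPM in unc-4, against 4.20, 1.14 and 2.38 TPM in wild type. Both had all unc-4 libraries above wild type with a narrow spread. The last pair, frpr-17 and frpr-15, overlap exons of fbxa-179 and parn-1 on the opposite strand. The gene frpr-17 had 50.2, 19.9 and 64.9 TPM in unc-4, against 8.68, 3.21 and 2.94 TPM in wild type. The gene frpr-15 had 34.9, 5.11 and 19.4 TPM in unc-4, against 2.57, 0.516 and 1.90 TPM in wild type.

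A list of homeobox genes, whose DNA-binding products set neuron identity, had 8 of 107 members in the table (7.48%), and 5 were separated. The Prospero-type homeobox gene pros-1, described further on and separated, is not on this list. Besides ceh-12 the 8 were led by lim-4 (chromosome X, 3869404 to 3873545), a LIM homeobox gene. It had 632, 28.7 and 1179.6 TPM in unc-4, against 46.8, 2.20 and 35.1 TPM in wild type. Replicates 1 and 3 of unc-4 were far above wild type, and unc-4 replicate 2 lay below wild type replicates 1 and 3. The NK-2 type gene ceh-24 (chromosome V, 13813231 to 13815350) had 148, 9.17 and 356 TPM in unc-4, against 7.07, 0.704 and 5.45 TPM in wild type. The BarH-type gene ceh-31 had 230.5, 7.71 and 218 TPM in unc-4, against 10.97, 2.10 and 2.93 TPM in wild type. The groups overlapped in ceh-31 and narrowly did not in ceh-24. The Six-type gene ceh-34 had 203, 15.1 and 114 TPM in unc-4, against 7.98, 6.46 and 18.3 TPM in wild type, with overlap through unc-4 replicate 2, and its exons overlap those of C10G8.2 on the opposite strand. Ratios were 21.9 (11.8 without unc-4 replicate 3, and 32.9 without wild type replicate 1) for lim-4, 38.8 (17.8 without unc-4 replicate 3) for ceh-24 and 28.5 (60.5 without wild type replicate 1) for ceh-31. For ceh-31 the ratio was 74.5 between group medians and 51.96 over wild type replicate 3 alone.

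The other 3 genes of the homeobox list were separated. The Pitx-type gene unc-30 (chromosome IV, 13118977 to 13124406), which specifies GABA motor neurons of the D class, had 80.7, 51.6 and 134 TPM in unc-4, against 11.01, 6.04 and 13.2 TPM in wild type, a ratio of 8.79. It was the only one of 7 GABA neuron markers listed. The POU gene unc-86 had 80.7, 15.7 and 50.7 TPM in unc-4, against 11.9, 3.99 and 1.51 TPM in wild type. The LIM homeobox gene lim-7 had 81.7, 9.86 and 39.2 TPM in unc-4, against 6.88, 3.43 and 3.17 TPM in wild type. In both, unc-4 replicate 2 was above the highest wild type library by less than 2 times. Without unc-4 replicate 2, all 8 genes of the homeobox list were separated.

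A list of 424 other transcription factor genes, which does not hold all such genes of the worm, had 3 members in the table (0.708%, against 1.07% of all coding genes), all separated. Listed DNA-binding genes outside it and the homeobox list include pros-1, sem-4, lin-31, pax-2, vab-23 and somi-1, chosen after their values were seen. The share of 0.708% thus holds for the list and not for transcription factor genes as a whole. The bZIP gene zip-8 (chromosome III, 6478955 to 6481243) had 191, 16.3 and 166 TPM in unc-4, against 0.451, 1.09 and 4.40 TPM in wild type. The bHLH gene hlh-32 had 18.8, 155 and 28.5 TPM in unc-4, against 3.97, 1.79 and 4.87 TPM in wild type, so that most of its difference lay in unc-4 replicate 2. Ratios were 63.02 (162 without wild type replicate 3) for zip-8 and 19.1 (6.67 without unc-4 replicate 2) for hlh-32. Between group medians they were 153 for zip-8 and 7.18 for hlh-32, and over wild type replicate 3 alone that of zip-8 was 28.4. Wild type replicate 3 held most of the wild type zip-8 signal. The Snail-type gene ces-1 had 6.65, 10.4 and 0.791 TPM in unc-4, against 0, 0 and 0.0685 TPM in wild type, low levels against wild type libraries listed at or near 0, and its exons overlap those of cpn-1 on the opposite strand.

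**Figure D3:**
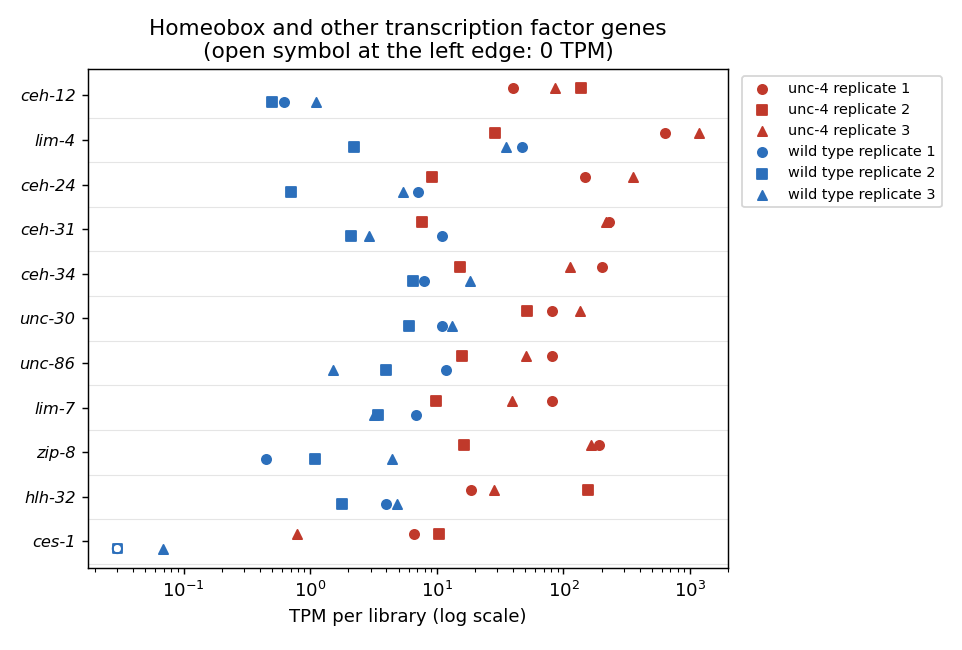
TPM per library (log scale) for the 8 genes of the homeobox list, ceh-12 at the top, and 3 other listed transcription factor genes. The unc-4 libraries are in red above wild type in blue, and an open symbol at the left edge is 0 TPM. In ceh-12 and hlh-32 the red square of unc-4 replicate 2 is the highest value, at 139 TPM and 155 TPM, whereas in lim-4, ceh-24 and ceh-31 it is the lowest unc-4 value.

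Genes of cyclic nucleotide and G protein signalling had 6 of 100 members listed, with 4 separated and a median ratio of 41.7. The Ca2+/calmodulin-dependent phosphodiesterase gene pde-1 (WBGene00011433, chromosome I, 13310887 to 13318716) breaks down cyclic nucleotides. It had 56.2, 31.4 and 65.5 TPM in unc-4, against 11.96, 10.7 and 6.64 TPM in wild type, all unc-4 libraries above wild type. Its mean was 51.03 ± 17.6 TPM in unc-4 and 9.78 ± 2.79 TPM in wild type (SD, n = 3 each), a ratio of 5.22, or 4.48 to 6.22 with 1 library left out. The authors' deposited table gave it a fold of 4.55 and an FDR p-value of 0.0083. Its ratio was the smallest of the 6.

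Without unc-4 replicate 2 all 6 were separated. Receptor guanylyl cyclases make cGMP, and 3 of their genes were listed, with high values in unc-4 replicates 1 and 3. The gene gcy-11 had 253, 3.01 and 90.3 TPM in unc-4, against 1.90, 0.782 and 2.64 TPM in wild type. The gene gcy-21 had 69.7, 0.0766 and 27.8 TPM in unc-4, against 0.570, 0.162 and 0.205 TPM in wild type. The gene gcy-15 had 66.2, 0 and 12.1 TPM in unc-4, against 0.622, 0.162 and 0.334 TPM in wild type. In gcy-21 and gcy-15 unc-4 replicate 2 was below every wild type library. The ratio of gcy-11 was 64.99 (26.3 without unc-4 replicate 1), and 41.9 with a pseudocount of 1 TPM. The regulator of G protein signalling gene rgs-3 had 89.2, 11.8 and 32.6 TPM in unc-4, against 7.74, 3.38 and 0.329 TPM in wild type. The G protein alpha subunit gene gpa-2, which overlaps F38E1.10 on the opposite strand, had 29.1, 9.16 and 23.3 TPM in unc-4, against 1.79, 0.577 and 0.955 TPM in wild type. Both were separated.

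A list of ion channel and transmitter receptor genes had 10 of 270 members in the table (3.70%), of which 5 were separated and all 10 without unc-4 replicate 2. The 10 include tyra-2 and ser-5, which are G protein-coupled amine receptors, and the channel subunit gene ccb-2, described further on, is not on the list. Ligand-gated channel genes were the highest. The gene lgc-28 had 928, 65.5 and 394 TPM in unc-4, against 17.3, 28.95 and 87.2 TPM in wild type. The gene lgc-23 had 152, 8.49 and 135 TPM in unc-4, against 1.69, 4.98 and 18.6 TPM in wild type. In both, unc-4 replicate 2 fell within the wild type range. The nicotinic-type receptor gene acr-15 had 102, 55.5 and 165 TPM in unc-4, against 24.4, 22.7 and 8.40 TPM in wild type, a ratio of 5.82 (12.8 over wild type replicate 3 alone) with no overlap. Its neighbour on the chromosome, acr-16, which encodes a nicotinic receptor subunit of body muscle, had 37.3, 0.341 and 54.7 TPM in unc-4, against 2.16, 1.74 and 0.825 TPM in wild type. Replicate 2 of unc-4 was below all wild type libraries there, and acr-16 overlaps F25G6.8 on the opposite strand. The AMPA-type glutamate receptor gene glr-2 had 26.6, 11.3 and 14.8 TPM in unc-4, against 1.96, 2.16 and 0.323 TPM in wild type, all unc-4 libraries above wild type.

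The other 5 of this group encode a potassium channel, receptors for amines and TRPV-type channels. The potassium channel gene C32C4.1, now kvs-2, had 52.96, 39.5 and 22.8 TPM in unc-4, against 9.24, 1.54 and 5.76 TPM in wild type, and it overlaps C32C4.3 on the opposite strand. The tyramine receptor gene tyra-2 had 27.7, 2.35 and 68.1 TPM in unc-4, against 4.797, 1.83 and 3.74 TPM in wild type, with overlap through unc-4 replicate 2. The serotonin receptor gene ser-5 had 16.9, 5.16 and 34.2 TPM in unc-4, against 1.86, 0.239 and 0.984 TPM in wild type, without overlap. Only tyra-2 of these amine receptor genes overlapped. The TRPV-type channel gene ocr-3 had 35.2, 0.978 and 53.6 TPM in unc-4, against 2.03, 0.430 and 0.0796 TPM in wild type. Its relative ocr-1 had 5.37, 1.08 and 3.11 TPM in unc-4, against 0.178, 0.0358 and 0.0454 TPM in wild type. Only ocr-1 was separated, and its exons overlap those of D1054.1.

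A list of guidance, adhesion and matrix genes, which does not hold all such genes, had 7 of 348 members in the table (2.01%). Of the 7, only wrk-1 and lad-2 were separated, against 6 of 7 without unc-4 replicate 2. Outside the list lie eva-1, unc-71 and vab-8, described further on and separated, and the matrix gene dig-1, in which the groups overlapped. These were picked after their values were seen. The immunoglobulin-domain gene wrk-1, which acts in axon placement at the ventral midline, had 348, 131 and 253 TPM in unc-4, against 37.3, 23.9 and 52.1 TPM in wild type, a ratio of 6.45. The L1-type adhesion gene lad-2 had 48.9, 7.39 and 95.6 TPM in unc-4, against 5.34, 2.19 and 6.70 TPM in wild type, and it overlaps ser-6 on the opposite strand. The secreted immunoglobulin genes zig-4 and zig-5 maintain axon position. The gene zig-4 had 880.2, 17.7 and 196 TPM in unc-4, against 19.3, 7.99 and 9.97 TPM in wild type. The gene zig-5 had 86.6, 5.21 and 133 TPM in unc-4, against 14.7, 6.35 and 6.55 TPM in wild type. In zig-4 most of the difference lay in unc-4 replicate 1. The leucine-rich repeat gene lron-4 had 266, 0.345 and 32.9 TPM in unc-4, against 3.22, 3.41 and 1.30 TPM in wild type. The C-type lectin gene clec-145 had 191, 4.91 and 73.6 TPM in unc-4, against 0.860, 1.99 and 7.84 TPM in wild type, both with overlap and both sharing exonic sequence with an opposite-strand neighbour. Of 28 Wnt pathway genes, the planar polarity gene prkl-1, a Prickle relative, was the only one listed. It had 45.5, 121.5 and 259 TPM in unc-4, against 11.05, 13.3 and 4.31 TPM in wild type, with all unc-4 libraries above wild type, and it overlaps him-3 on the opposite strand.

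Markers of other cells give a view of what else the sorted libraries could hold. Of 8 coelomocyte markers, genes of the scavenger cells of the body cavity, 3 were listed (37.5%, against 1.07% of all coding genes). This was the highest share of any list, but in lists this small single genes decide the order. The next was 28.6%, for the 7 VB and DB genes. Their summed level was 1885.5, 175 and 704 TPM in unc-4 replicates 1, 2 and 3, against 39.1, 56.8 and 145 TPM in wild type replicates 1, 2 and 3. The channel gene cup-4 had 1409, 139.9 and 567 TPM in unc-4, against 29.9, 43.3 and 115.2 TPM in wild type. The surface protein gene unc-122 had 422, 33.3 and 119 TPM in unc-4, against 8.71, 12.3 and 26.4 TPM in wild type. The cubilin-type gene ZC116.3, now cubn-1, had 54.4, 2.29 and 17.6 TPM in unc-4, against 0.503, 1.21 and 3.31 TPM in wild type. Of these, cup-4 and unc-122 were separated. All 3 were highest in unc-4 replicate 1 and, among wild type libraries, in replicate 3. The part of such cells in the other listed genes was not tested.

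For other cell types the counts were near the 1.07% of all coding genes or rest on single genes. The lists of muscle (16 genes), intestine (14), germline (15), glia (11), ciliated sensory neurons (24) and touch neurons (9) and of glutamate and monoamine neurons (9) had 0 members in the table. Lists this small cannot show that such cells are absent. The sensory neuron list does not hold all such genes, and daf-7, known from sensory neurons and described further on, was listed. Also listed but outside it are the guanylyl cyclase genes gcy-21 and gcy-15, the TRPV-type genes ocr-3 and ocr-1 and the chemoreceptor-type gene srh-271. The count for this list thus does not give the share of sensory-type genes among those listed. The part of sensory neurons in the listed genes was not tested. The pharyngeal gland gene phat-5, 1 of 15 pharynx markers, had 18.9, 71.998 and 434 TPM in unc-4, against 7.28, 8.66 and 1.84 TPM in wild type, with most of it in unc-4 replicate 3. Of 274 hypodermis and cuticle genes, the patched-related gene ptr-24 had 57.7, 8.34 and 87.4 TPM in unc-4, against 4.44, 1.90 and 4.62 TPM in wild type. The collagen gene col-129 had 10.01, 1.73 and 40.4 TPM in unc-4, against 0.0499, 0 and 0.254 TPM in wild type. Both were separated. Of 79 stress genes the extracellular superoxide dismutase gene sod-4 was listed, with 71.4, 37.4 and 111 TPM in unc-4, against 9.32, 3.70 and 15.1 TPM in wild type, and it overlaps ctr-9 on the opposite strand. A marker that is not listed may still be present in both groups at like levels, and its level in unc-4 is not analysed here.

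Most listed genes, 151 of 214, fell on none of these 25 lists. Of these, 63 have a gene name and 88 only a sequence name, with 40 and 65 separated and median ratios of 14.1 and 16.8. High in level among them were ZC410.5, now msa-1, at 3513, 506 and 4196 TPM in unc-4, against 379, 109.6 and 521 TPM in wild type. Also high was T05A8.3, at 2850.0, 461 and 3498 TPM in unc-4, against 259, 62.1 and 188 TPM in wild type. Their exons overlap those of lpl-1 on the opposite strand and of nep-2 on the same strand. The gene F26E4.3 had 1627, 573 and 1686 TPM in unc-4, against 264, 120.5 and 128.9 TPM in wild type, with no overlap between groups, a ratio of 7.57 (12.6 between group medians). The gene C15C7.4 had 2891, 33.9 and 570.2 TPM in unc-4, against 25.1, 7.93 and 33.8 TPM in wild type, where unc-4 replicate 2 lay just above wild type replicate 3. The gene osm-11 (chromosome X, 17420211 to 17421582), which encodes a secreted co-ligand of Notch receptors, had 1354, 355 and 1427 TPM in unc-4, against 72.5, 54.03 and 142 TPM in wild type, a ratio of 11.7 (18.7 between group medians, and 7.36 over wild type replicate 3 alone). In osm-11 the lowest unc-4 library was above all wild type libraries. The alcohol dehydrogenase gene sodh-1, now adh-1, had 1150.5, 139.7 and 1469.5 TPM in unc-4, against 35.3, 14.9 and 208 TPM in wild type and overlaps sodh-2 on the opposite strand. The gene ccg-1 had 1929, 102 and 439.99 TPM in unc-4, against 70.1, 98.2 and 124 TPM in wild type. In these last 2 and in ZC410.5 the groups overlapped, each through unc-4 replicate 2, while in T05A8.3 they did not.

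The largest ratios belonged mostly to genes that were near 0 in wild type, where a ratio depends on very small values. Among separated genes with an unc-4 mean of at least 5 TPM, the 12 largest ratios included ces-1, col-129, ceh-12, capa-1, gcy-11, zip-8 and nlp-12. The other 5 were F11E6.6, scl-14, Y47D7A.12, srh-271 and gcl-1. The secreted SCP-type gene scl-14 had 24.9, 1.24 and 67.02 TPM in unc-4, against 0, 0 and 0.445 TPM in wild type. The gene Y47D7A.12 had 467, 6.72 and 45.2 TPM in unc-4, against 1.34, 0.432 and 1.64 TPM in wild type, with most of its mean in unc-4 replicate 1. The chemoreceptor-type gene srh-271 had 3.75, 1.25 and 10.4 TPM in unc-4, against 0.103, 0 and 0 TPM in wild type. Here unc-4 replicate 2 was the lowest of its group but above wild type. The germ cell-less relative gcl-1 had 5.42, 3.68 and 13.1 TPM in unc-4, against 0.163, 0.153 and 0.0555 TPM in wild type. The gene F11E6.6 had 0.249, 6.202 and 12.5 TPM in unc-4, against 0, 0 and 0.0756 TPM in wild type. Of these 5 genes, Y47D7A.12 and gcl-1 had no wild type library at 0, and 2 wild type libraries were listed at 0 in the others.

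How far unc-4 replicate 2 fell below the other unc-4 libraries differed between genes. Its value was a median of 0.150 of the mean of replicates 1 and 3, with quartiles of 0.0502 and 0.447. In 43 genes it reached at least 0.5 of that mean. These include ceh-12, flp-9, nlp-15, nlp-71, npr-12, npr-28 and pde-1 among the genes above. The 13 genes in which replicate 2 was the highest unc-4 library include ceh-12, hlh-32, ckr-1, ces-1 and nlp-71. They also include the lysozyme gene lys-1, with 89.2, 326 and 47.9 TPM in unc-4, against 7.68, 8.58 and 16.7 TPM in wild type. Another is the zinc finger gene vab-23, with 42.99, 118 and 62.1 TPM in unc-4, against 2.999, 6.08 and 4.20 TPM in wild type. Both were separated. By list, among those with 3 or more listed genes, the median of this quantity was 2.79 for the 3 other transcription factors, 0.446 for peptide receptors and 0.151 for channels and transmitter receptors. It was 0.129 for homeobox genes, 0.123 for coelomocyte markers, 0.106 for cyclic nucleotide and G protein genes, 0.0968 for neuropeptide precursors and 0.0475 for guidance genes. For the pair of VB and DB genes it was 1.62. These medians cover list members only and depend on how the lists were drawn. Outside the precursor list, nlp-38 had 2.90. Outside the guidance list, unc-71 had 1.30, vab-8 0.785, eva-1 0.361 and dig-1 0.0587.

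**Figure D4:**
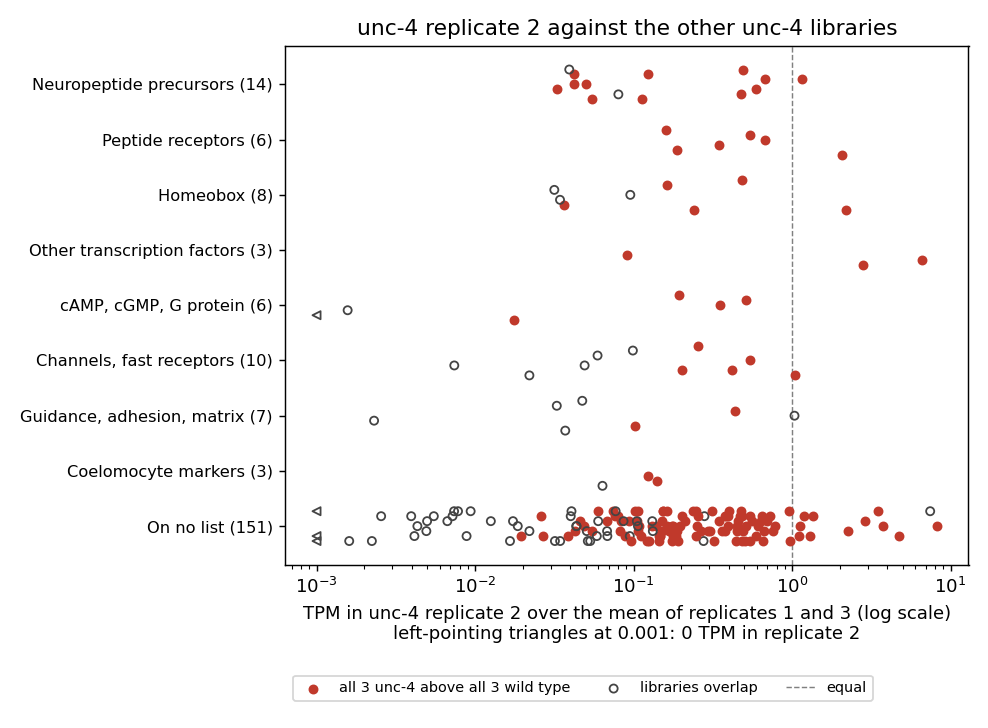
TPM in unc-4 replicate 2 divided by the mean of unc-4 replicates 1 and 3 (log scale) for each listed gene, by group, with the number of genes in brackets; filled points are separated genes, open points genes with overlap, triangles genes at 0 TPM in replicate 2, and the dashed line marks equality. Most points lie left of the line, around a median of 0.150.

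Of the 214 genes, 13 were also listed in the authors' table of wild type VA neurons against whole worms, which is 6.07% of the first table and 0.553% of the second. Both comparisons share the wild type libraries, whose values are identical in the 2 tables. By the choice of genes their levels descend in order of unc-4, wild type and whole worms. Of the 13, 10 were separated between unc-4 and wild type. The median of the mean wild type level was 28.03 TPM in these 13 and 4.43 TPM in the other 201.

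The shared genes include nlp-15, lim-4, lgc-28, wrk-1 and npr-12 from the groups above. In whole-worm replicates 2, 3 and 4 the level of nlp-15 was 55.8, 66.6 and 74.3 TPM, and that of lim-4 was 8.18, 8.34 and 7.63 TPM, so that unc-4 replicate 2 of lim-4 was above whole worms and inside the wild type VA range. The calcium channel beta subunit gene ccb-2 had 332, 15.7 and 387 TPM in unc-4, against 20.3, 7.29 and 17.8 TPM in wild type, and 2.09, 1.92 and 1.497 TPM in whole worms. The gene eva-1, a receptor for the guidance cue SLT-1, had 62.2, 101 and 497 TPM in unc-4, against 36.5, 21.8 and 31.2 TPM in wild type, and 16.4, 10.1 and 15.9 TPM in whole worms. The ADAM-type gene unc-71 had 50.5, 119 and 133 TPM in unc-4, against 29.5, 16.8 and 18.5 TPM in wild type, and 6.12, 4.83 and 4.32 TPM in whole worms. Its exons overlap those of Y37D8A.29 on the same strand. In eva-1 and unc-71 the groups did not overlap, while ccb-2 overlapped through unc-4 replicate 2. The others were sue-1, ZK265.7, nlp-38 (now mihp-1), C05C12.6 and C35E7.2, all separated. Of these nlp-38 was highest in unc-4 replicate 2, at 128, 461 and 189.9 TPM in unc-4, against 39.8, 28.3 and 14.9 TPM in wild type.

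**Figure D5:**
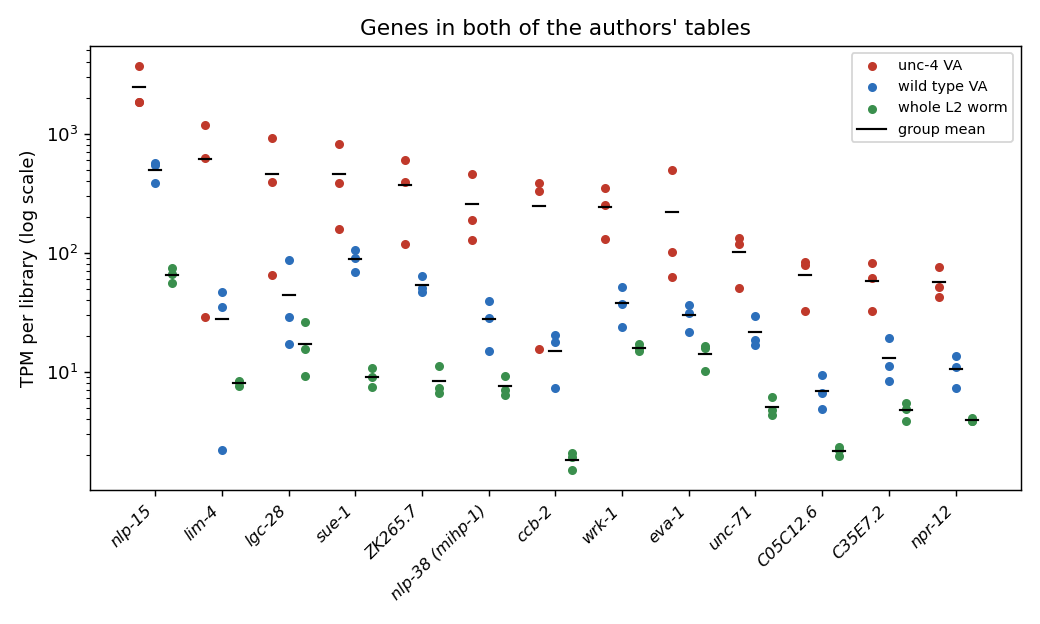
TPM per library (log scale) for the 13 genes in both tables, with 3 libraries each of unc-4 VA neurons, wild type VA neurons and whole L2 worms from left to right and a bar at each group's mean. The means descend from unc-4 to wild type VA to whole worms in all 13 genes, as the choice of genes requires.

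By position, the listed genes lay on all 6 chromosomes in the annotation of WBcel235. Chromosome X held 42 of them, 19.6% of the listed genes and 13.7% of all coding genes, and chromosome II held 27, 12.6% and 17.3%. Listed genes were 1.07% of all coding genes, and how many neighbouring pairs this share alone would give was not computed. They formed 8 pairs of neighbours with no other coding gene between them, which involve 15 genes. Among these, C12D5.5, C12D5.4 and C12D5.3 lie in a row on the same strand of chromosome V (7668240 to 7676965). C12D5.5 had 552, 2.13 and 38.1 TPM in unc-4, against 3.25, 0.283 and 2.24 TPM in wild type. The gene C12D5.4 had 229, 5.75 and 21.8 TPM in unc-4, against 2.84, 0.408 and 4.24 TPM in wild type. C12D5.3 had 444, 43.9 and 188 TPM in unc-4, against 28.1, 9.93 and 43.6 TPM in wild type. All 3 had the same order of unc-4 libraries, with replicate 1 highest and replicate 2 lowest, as is common in the table, where replicate 1 was highest in 97 genes and replicate 2 lowest in 178. A further pair was acr-15 and acr-16, on the same strand with 5832 bases between them.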

How the data were processed

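RNA was measured by sequencing of sorted VA neurons, 3 unc-4 and 3 wild type libraries, with cDNA from a low-input SMART-Seq kit per the labels' protocols. The authors deposited a TPM value per library, with each group's mean, made on genome build WBcel235, as the submitters' processing notes name it. The deposited fold change is read as a linear ratio and the deposited p-value as an FDR, per the file headers. The aligner, the counting and the test are not given in the sources used here. Depth is unknown, so no interval or floor is given.

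From the TPM values, group means, SDs, ratios of means without a pseudocount, separation of the groups and leave-one-out ratios were computed with Python 3.11.15, numpy 2.4.6 and pandas 2.3.3, tested on simulated data. No test was run, since an exact test of 3 against 3 cannot go below 0.1 and the genes were selected on these libraries. Identifiers were matched to Ensembl release 115, for 214 of 214 genes and positions, and current symbols differ from the table for 15. Symbols are the table's. Genes named are ceh-12, flp-9 and pde-1, up to 8 per list by unc-4 mean, the 12 highest means, the 12 largest ratios among separated genes with at least 5 TPM, genes in both tables and the UNC-4 pathway genes, and the remaining members of small lists. Genes named for unc-4 replicate 2 or for position were chosen after their values were seen. The members and lists were chosen with earlier results of these data known. Sequences were not used here.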

Additional observations from a re-analysis of the deposited data

How the results depend on the processing

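Leaving out 1 library at a time gave 151 to 209 separated genes, the most without unc-4 replicate 2, and all 150 genes remained separated, since fewer libraries can only add genes. The median ratio of mean TPM then lay between 10.4 (without unc-4 replicate 1) and 20.4 (without unc-4 replicate 2). A stricter rule, the lowest unc-4 library at least 2 times the highest wild type library, left 97 genes, and unc-4 replicate 2 alone over the wild type mean gave a median ratio of 2.84. Filters at 1 and 5 TPM, medians or geometric means, pseudocounts, wild type replicate 3 alone, unc-4 replicates 1 and 3 against it and the authors' deposited fold gave 148 to 210 separated genes and median ratios of 7.48 to 17.9. With 1 library left out, the listed genes held 4.02% to 6.32% of TPM in unc-4 and 0.350% to 0.448% in wild type. The number of genes shared with the whole-worm table stayed at 13 when matched by symbol. Replicate numbers are shared between groups, but nothing in the labels pairs the libraries, and whether they pair was not tested; 190 genes were higher in unc-4 in all 3 same-numbered pairs, the result with the replicate number as a block. Of 22 genes with a printed ratio, 9 changed by over 1.5 times when a library was left out, and over 220 values the lowest ratio was 3.41. Results without unc-4 replicate 2 by list, those with unc-4 replicate 2 alone or left out together with wild type replicates 1 and 2, and matching by symbol were chosen after seeing the data. TPM keeps no depth, so counting error at low levels cannot be given.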

Other observations

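The genes below lie outside the lists and were chosen after their values were seen. Further DNA-binding genes were listed. The Prospero-type homeobox gene pros-1 had 42.4, 6.24 and 23.4 TPM in unc-4, against 2.42, 1.74 and 2.38 TPM in wild type. The SALL-type zinc finger gene sem-4 had 142, 52.9 and 91.7 TPM in unc-4, against 23.3, 7.93 and 15.02 TPM in wild type. The winged helix gene lin-31 had 49.6, 13.003 and 33.97 TPM in unc-4, against 2.52, 2.88 and 3.52 TPM in wild type. In all of them the groups did not overlap. The Pax gene pax-2 had 57.5, 0 and 13.1 TPM in unc-4, against 0.302, 0.0808 and 0.0512 TPM in wild type, so that unc-4 replicate 2 was at 0. The zinc finger gene somi-1 had 110.2, 85.9 and 195 TPM in unc-4, against 27.9, 17.7 and 16.1 TPM in wild type. The linker histone gene hil-7 had 307, 81.7 and 556 TPM in unc-4, against 12.6, 12.7 and 22.04 TPM in wild type, both without overlap.

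Signalling genes of other families were also among the listed. The TGF-beta-type ligand gene daf-7, known from sensory neurons, had 164, 28.4 and 205 TPM in unc-4, against 9.85, 10.2 and 19.6 TPM in wild type. The Notch receptor gene lin-12 had 19.3, 13.5 and 22.4 TPM in unc-4, against 2.28, 2.74 and 1.86 TPM in wild type, an even spread within each group. The light receptor gene lite-1 had 191, 3.31 and 16.5 TPM in unc-4, against 4.60, 1.67 and 0.0196 TPM in wild type, nearly all of it in unc-4 replicate 1. In these 3 genes replicate 2 was the lowest unc-4 library. The sex determination gene tra-2, which encodes a membrane protein, had 31.5, 38.5 and 37.2 TPM in unc-4, against 9.91, 7.29 and 7.82 TPM in wild type, the smallest ratio of the table at 4.28, and it overlaps ceh-38 on the opposite strand. The guanine nucleotide exchange factor genes uig-1 and exc-5 had similar levels. The gene uig-1 had 67.4, 31.8 and 64.6 TPM in unc-4, against 9.14, 11.3 and 6.70 TPM in wild type. The gene exc-5 had 56.2, 31.9 and 67.5 TPM in unc-4, against 9.43, 7.18 and 3.96 TPM in wild type, and uig-1 overlaps F32F2.4 on the opposite strand. The kinesin-like gene vab-8, which acts in posterior axon growth, had 172, 206 and 353 TPM in unc-4, against 28.7, 44.2 and 16.1 TPM in wild type. All but lite-1 were separated.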
